A study of Homo sapiens with 19 samples.

Results

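The genes described here are 10 direct targets of p53 with roles in DNA repair, nucleotide supply and metabolism, together with signalling genes of the same programme: XPC, DDB2, POLH, RRM2B, FDXR, C12orf5 (the older symbol of TIGAR), TP53INP1, PHLDA3, AEN and CYFIP2. They were taken by symbol, as the rows of the raw count table with these names, out of 23367 genes, and all 10 were among the 14793 genes with enough counts to test. p53 is a transcription factor that is held at a low level by MDM2, a ubiquitin ligase that is itself a p53 target, and that accumulates when DNA is broken. It then switches on genes that stop the cell cycle, such as CDKN1A, genes that trigger cell death, and genes that repair DNA or adjust metabolism, to which the 10 belong. In neuroblastoma, a tumour of the sympathetic nervous system of children, p53 is usually intact at diagnosis, and MYCN, the MYC family factor amplified in part of these tumours, is known to act on the p53 pathway.

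RNA was sequenced from SHEP TET21N, an established neuroblastoma line carrying a MYCN transgene that doxycycline shuts off. MYCN-high cells were cultured without doxycycline and MYCN-low cells with it, and each state was sampled untreated, after 72 h in doxorubicin at 0.1 µg/ml, and 3, 8 and 14 days after the drug was washed out. Doxorubicin is an anthracycline that poisons topoisomerase II and breaks DNA. The 10 groups hold 19 libraries, labelled as biological duplicates B and C, and MYCN-low cells at 14 days have replicate B alone. Every MYCN-low culture therefore also received doxycycline, the line is a single engineered line, and each state has 1 untreated group with no untreated culture at the later times. All 4 treated times of a state are compared with that same untreated group, so these comparisons are not independent of each other.

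MYCN ran from 594 to 1416 CPM (counts scaled to equal library size) in the 10 MYCN-high libraries and from 13.5 to 30.7 CPM in the 9 MYCN-low libraries, so the state labels held in every library. Mesenchymal markers were at uneven levels, and CD248 was not above 0.325 CPM. VIM was at 748 to 1058 CPM in MYCN-high and 1166 to 2655 CPM in MYCN-low libraries. SNAI2 was at 1.13 to 14.2 and 27.5 to 89.9 CPM, and YAP1 at 154 to 223 and 244 to 295 CPM, in the same order. FN1 was at 60.7 to 231 CPM in MYCN-high and 612 to 10962 CPM in MYCN-low libraries. PRRX1 overlapped between the states (127 to 346 and 104 to 348 CPM), and so did CD44, FOSL1, FOSL2 and TWIST1. Among adrenergic markers, PHOX2A was at 0 counts in all 19 libraries and DBH, TH and CHGA did not exceed 0.146 CPM, while HAND2 was at 100.3 to 325 CPM in MYCN-high and 46.0 to 128 CPM in MYCN-low libraries, and GATA2, GATA3, CHGB and ISL1 were present at lower levels. The summed level of 10 mesenchymal markers was 1719 to 2624 CPM in MYCN-high and 4486 to 14191 CPM in MYCN-low libraries. FN1 alone reached 10962 CPM in the latter. The sum of the adrenergic markers overlapped between untreated states. It was higher in MYCN-high cells, without overlap, at every treated time. The values were 141 to 209 against 91.0 to 132 CPM at 72 h and 221 to 262 against 90.2 to 153 CPM at 3 days. They were 308 to 361 against 83.8 to 138 CPM at 8 days and 175 to 285 against 67.4 CPM at 14 days. The part of either list in the differences between the states was not tested. Total counts ran from 16547663 to 27664604 per library. The least alike pair was untreated MYCN-low B and C, in which 2647 genes were more than 2-fold apart, against 1103 to 1664 in the other pairs. In MYCN-high cells at 8 days, 5 of the 10 genes were more than 1.5-fold apart between the replicates, and B was the higher one in each of those 5. A list of structured and mitochondrial RNAs used as a sign of RNA quality, of which 5 of 10 were in the table, summed to 2521 to 2783 CPM in untreated and 5014 to 6363 CPM in 72 h MYCN-high libraries, and to 2474 to 5796 and 2161 to 3606 CPM in MYCN-low libraries at the same times. Its part in the results was not tested.

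For 7 of the 10 genes a promoter window (250 bases before to 50 after a transcription start) was matched in RefSeq, build GRCh38.p14, 10 windows in all. PHLDA3, RRM2B and TP53INP1 had no entry. The windows were searched for the p53 consensus, a pair of abutting 10-base elements with CNNG at the core of each, A or T at both N, 3 purines before and 3 pyrimidines after; it is palindromic, so 1 search covers both strands. No mismatch was allowed at the C or G of either core, so mismatches here and below are at other positions. A full 20-base match with up to 3 mismatches was found in windows of FDXR, AEN and DDB2, and in 1.12% of all 35116 windows of that length. That share was 0.285% at up to 2 mismatches and 0.0541% at up to 1. The sequences are shown because these 3 genes carry the best matches among the members; a match is a description of letters and not evidence of binding. Capitals mark the matched 20 bases. For FDXR the minus strand of chr17:74872995-74873244 is given, with 3 mismatches at -21 to -2 from the start, and for AEN the plus strand of chr15:88621090-88621339, with 2 mismatches at -34 to -15. For DDB2 only the match itself is given (plus strand, chr11:47214969-47214988, with 1 mismatch, at -5 to 15 of a second start):
FDXR: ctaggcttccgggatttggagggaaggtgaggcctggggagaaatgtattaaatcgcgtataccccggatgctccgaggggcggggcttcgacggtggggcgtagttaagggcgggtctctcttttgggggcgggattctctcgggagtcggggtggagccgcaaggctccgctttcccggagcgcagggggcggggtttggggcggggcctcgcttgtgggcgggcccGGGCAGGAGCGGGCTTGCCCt
AEN: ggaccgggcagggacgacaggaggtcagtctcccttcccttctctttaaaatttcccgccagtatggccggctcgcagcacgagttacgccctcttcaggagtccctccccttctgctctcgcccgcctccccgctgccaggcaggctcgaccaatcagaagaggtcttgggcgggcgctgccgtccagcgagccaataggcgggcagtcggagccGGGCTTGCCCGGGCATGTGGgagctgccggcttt
DDB2: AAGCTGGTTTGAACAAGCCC

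No match with intact core C and G and up to 3 mismatches elsewhere was found in these windows of C12orf5, XPC, POLH or CYFIP2. This says only that such letters are not in these windows. Of the genes with a match, FDXR had the third largest rise of the 10 at 72 h in MYCN-high cells and AEN the smallest, as given next.

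After 72 h in doxorubicin all 10 genes were higher than in untreated cells in both states. In MYCN-high cells 10 of 10 passed the test, where 18.3% of all tested genes were called higher, and in MYCN-low cells 10 of 10, where 10.2% were. The test throughout is the quasi-likelihood test of edgeR with Benjamini-Hochberg adjustment over all tested genes, with a threshold of 0.05, and differences are log2 fold changes with their standard error. The median over the 10 was 2.21 in MYCN-high and 2.43 in MYCN-low cells, beside 0.03 and 0.01 over all genes. P-values measure the spread between cultures labelled as biological duplicates, and in bulk RNA a change in which cells are present and a change in RNA per cell cannot be told apart. These values take most genes as unchanged. Scaled on the ERCC spike-in RNAs instead, all 10 kept the direction of the 72 h rise in both states. The median of all genes was then itself 2.37 in MYCN-high and 0.52 in MYCN-low cells, so the direction alone says little. All 10 lay above that median in both states, AEN in MYCN-high cells least clearly, at 2.61. The one call that remained was TP53INP1 at 72 h in MYCN-high cells, and no member passed in the other 22 comparisons.

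**Figure D1:**
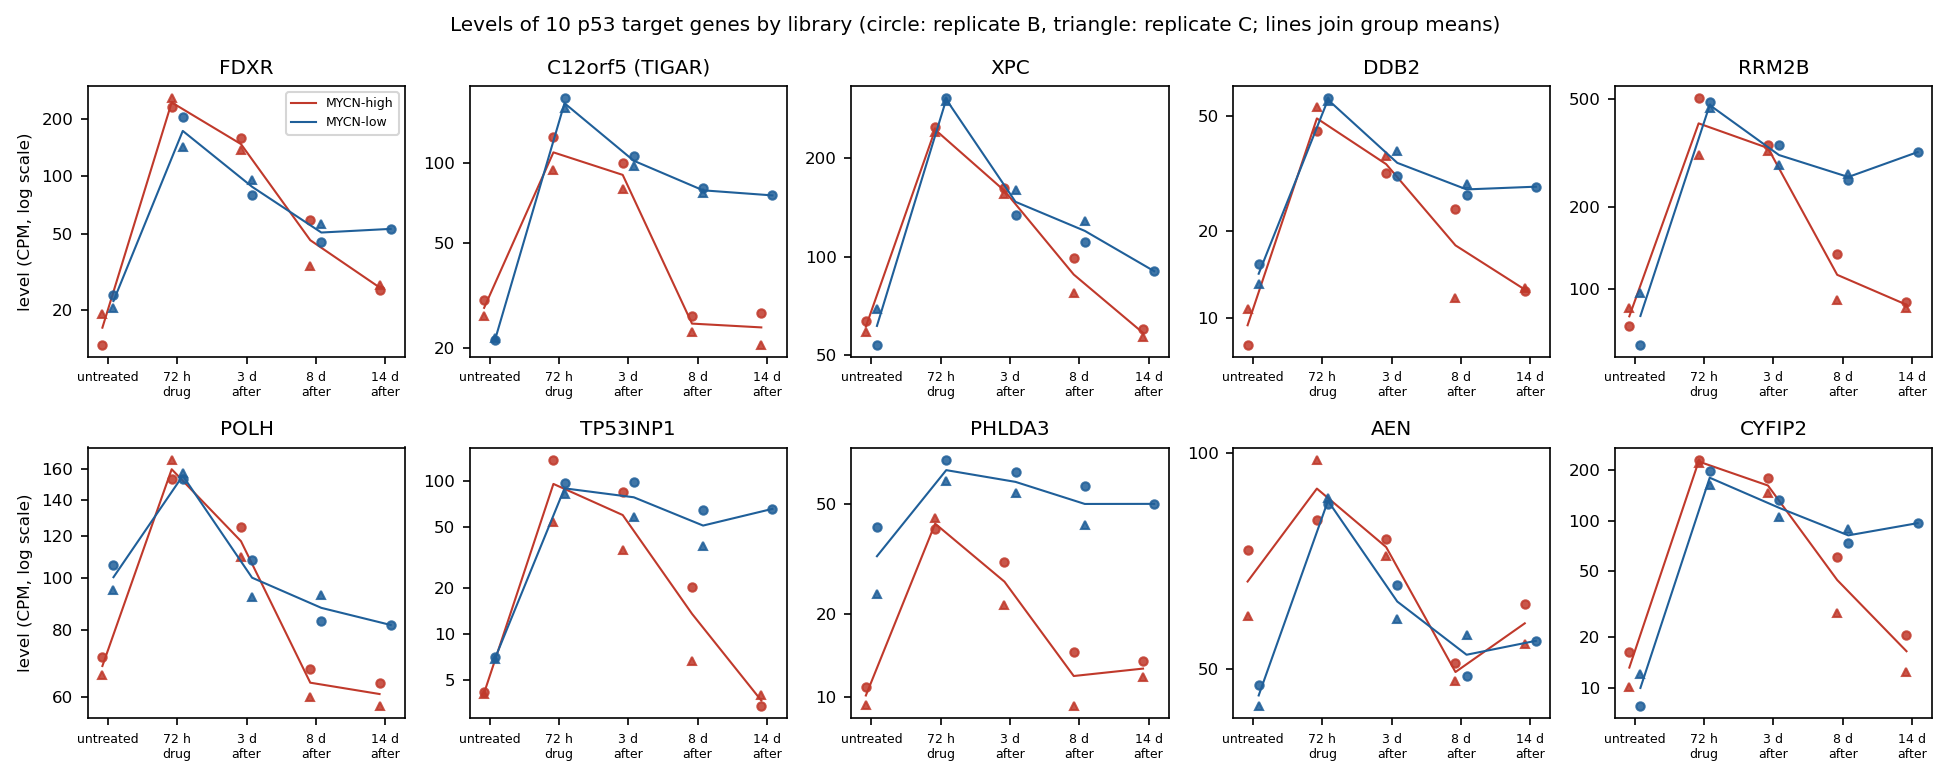
Level of each of the 10 genes in every library, in TMM-scaled CPM on a log axis, against the sampling time (categories, not to scale), with points for libraries and lines through the group means of MYCN-high and MYCN-low cells. All 10 stand above the untreated libraries at 72 h, and the lines of C12orf5, CYFIP2, RRM2B and TP53INP1 part at 14 days.

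XPC, which recognises distorted DNA at the start of global nucleotide excision repair, stood at 63.4 and 58.8 CPM in the untreated MYCN-high libraries B and C and at 249 and 241 CPM after 72 h. In MYCN-low cells it went from 53.8 and 68.9 to 305 and 300.5 CPM. The treated libraries lay far above the untreated ones in both states, and the duplicates were close together. The rise was 2.00 ± 0.17 in MYCN-high (edgeR, adjusted p = 1.1e-06) and 2.30 ± 0.17 in MYCN-low cells (adjusted p = 2.6e-07). At 14 days XPC was at 60.1 and 56.9 CPM in MYCN-high cells, overlapping its untreated libraries, and stood at 90.3 CPM in the lone MYCN-low library. DDB2, the subunit of the UV-damage-binding complex that hands lesions to XPC, was at 8.09 and 10.8 CPM untreated and 44.5 and 53.8 CPM at 72 h in MYCN-high cells, and at 15.4 and 13.1 and then 57.7 and 56.5 CPM in MYCN-low cells. That is a 5.21-fold rise in MYCN-high cells (log2 2.38 ± 0.27) and a 4.01-fold rise in MYCN-low cells (log2 2.01 ± 0.26), without overlap of the groups. At 8 days the MYCN-high duplicates of DDB2 differed by 2.04-fold, at 23.9 and 11.8 CPM.

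POLH, the translesion polymerase that copies past UV lesions and is missing in the variant form of xeroderma pigmentosum, began at 71.1 and 65.9 CPM in MYCN-high and at 106 and 94.9 CPM in MYCN-low cells. At 72 h the libraries of the 2 states were at 153 and 166 CPM and 153 and 157 CPM. The start was lower in MYCN-high cells, and the 72 h groups overlapped. The log2 rise was 1.22 ± 0.15 in MYCN-high cells and 0.63 ± 0.14 in MYCN-low cells. By 3 days after washout POLH was at 125 and 109.7 CPM in MYCN-high cells, still above both untreated libraries, and at 108 and 92.2 CPM in MYCN-low cells, where treated and untreated libraries overlapped. RRM2B, the p53-induced small subunit of ribonucleotide reductase that supplies deoxynucleotides outside S phase, rose from 73.6 and 85.6 to 501 and 310.2 CPM in MYCN-high cells. In MYCN-low cells RRM2B went from 62.7 and 96.9 to 486 and 462 CPM. Its log2 rise was 2.35 ± 0.25 and 2.57 ± 0.25, and the 72 h groups of the states overlapped. At 14 days RRM2B was 90.0 and 85.6 CPM in the MYCN-high libraries, overlapping the untreated ones, against 318 CPM in the MYCN-low library.

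FDXR, the mitochondrial reductase that passes electrons from NADPH to ferredoxins for steroid and iron-sulfur cluster synthesis, was at 13.3 and 19.2 CPM in untreated MYCN-high libraries and reached 230.4 and 255 CPM at 72 h. In MYCN-low cells FDXR went from 24.1 and 20.6 to 203 and 142 CPM. Every treated library was many times above every untreated one, a 14.9-fold change in MYCN-high (log2 3.90 ± 0.28; edgeR, adjusted p = 4.9e-07) and a 7.72-fold change in MYCN-low cells (log2 2.95 ± 0.27; adjusted p = 1.0e-06). C12orf5 encodes TIGAR, a phosphatase that lowers fructose-2,6-bisphosphate and so turns glucose from glycolysis toward the pentose phosphate pathway. It was at 30.4 and 26.6 CPM untreated and 126 and 94.4 CPM at 72 h in MYCN-high cells, and at 21.5 and 21.8 and 176 and 161 CPM in MYCN-low cells. The MYCN-low libraries started lower and ended higher, with no overlap between the states at 72 h. The rise was 1.95 ± 0.19 in MYCN-high and 2.96 ± 0.19 in MYCN-low cells. At 8 and 14 days C12orf5 was 26.6 and 23.1 and then 27.3 and 20.7 CPM in MYCN-high cells, overlapping the untreated libraries, and 80.8 and 77.3 and then 75.7 CPM in MYCN-low cells, above them.

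TP53INP1, a stress-induced nuclear protein that moves to autophagosomes by binding LC3 proteins, was at 4.19 and 4.07 CPM in untreated MYCN-high and 7.14 and 6.86 CPM in untreated MYCN-low cells. At 72 h it was at 138 and 54.0 CPM and 97.2 and 82.5 CPM. The rise was among the steepest in both states, and the MYCN-high duplicates lay far apart, B above C. It amounted to 4.54 ± 0.58 in MYCN-high cells and 3.68 ± 0.55 in MYCN-low cells on the log2 scale. At 14 days TP53INP1 stood at 3.39 and 3.98 CPM in MYCN-high cells, below its untreated libraries, and at 66.0 CPM in the MYCN-low library. CYFIP2, a subunit of the WAVE complex that starts branched actin growth, went from 16.2 and 10.1 to 231 and 220.4 CPM in MYCN-high and from 7.75 and 12.1 to 198 and 163 CPM in MYCN-low cells. These are 17.2-fold (log2 4.10 ± 0.37) and 18.1-fold rises (log2 4.17 ± 0.37), the second largest and the largest log2 rise of the 10 in the respective state.

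PHLDA3, a small PH-domain protein that keeps AKT from the membrane, differed between the states before any drug, with 10.9 and 9.35 CPM in MYCN-high and 41.0 and 23.6 CPM in MYCN-low cells. At 72 h it was at 40.4 and 44.4 CPM and 72.1 and 60.2 CPM. MYCN-low libraries were above MYCN-high libraries at both times. The rise was 2.06 ± 0.29 in MYCN-high and 1.04 ± 0.27 in MYCN-low cells (edgeR, adjusted p = 0.013), and the latter was lost without untreated C or without 72 h B of MYCN-low cells (adjusted p = 0.087 and 0.10). AEN, a nuclease that promotes apoptosis, moved least in MYCN-high cells, from 73.2 and 59.2 CPM to 80.6 and 97.8 CPM, and in MYCN-low cells went from 47.4 and 44.4 to 84.9 and 86.6 CPM. Its libraries did not overlap between untreated and treated in either state, but in MYCN-high cells the gap between the groups was narrower than the gap between either pair of duplicates. The log2 rise was 0.43 ± 0.16 in MYCN-high (edgeR, adjusted p = 0.043) and 0.90 ± 0.16 in MYCN-low cells (adjusted p = 0.00073). The call in MYCN-high cells was lost when any one of 9 libraries was left out (untreated C, 72 h C, 3 days C, and 8 days B or C of MYCN-high cells, and either library of 72 h or 3 days of MYCN-low cells; adjusted p up to 0.32), with the size factors of DESeq2 and without the filter on low counts.

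**Figure D2:**
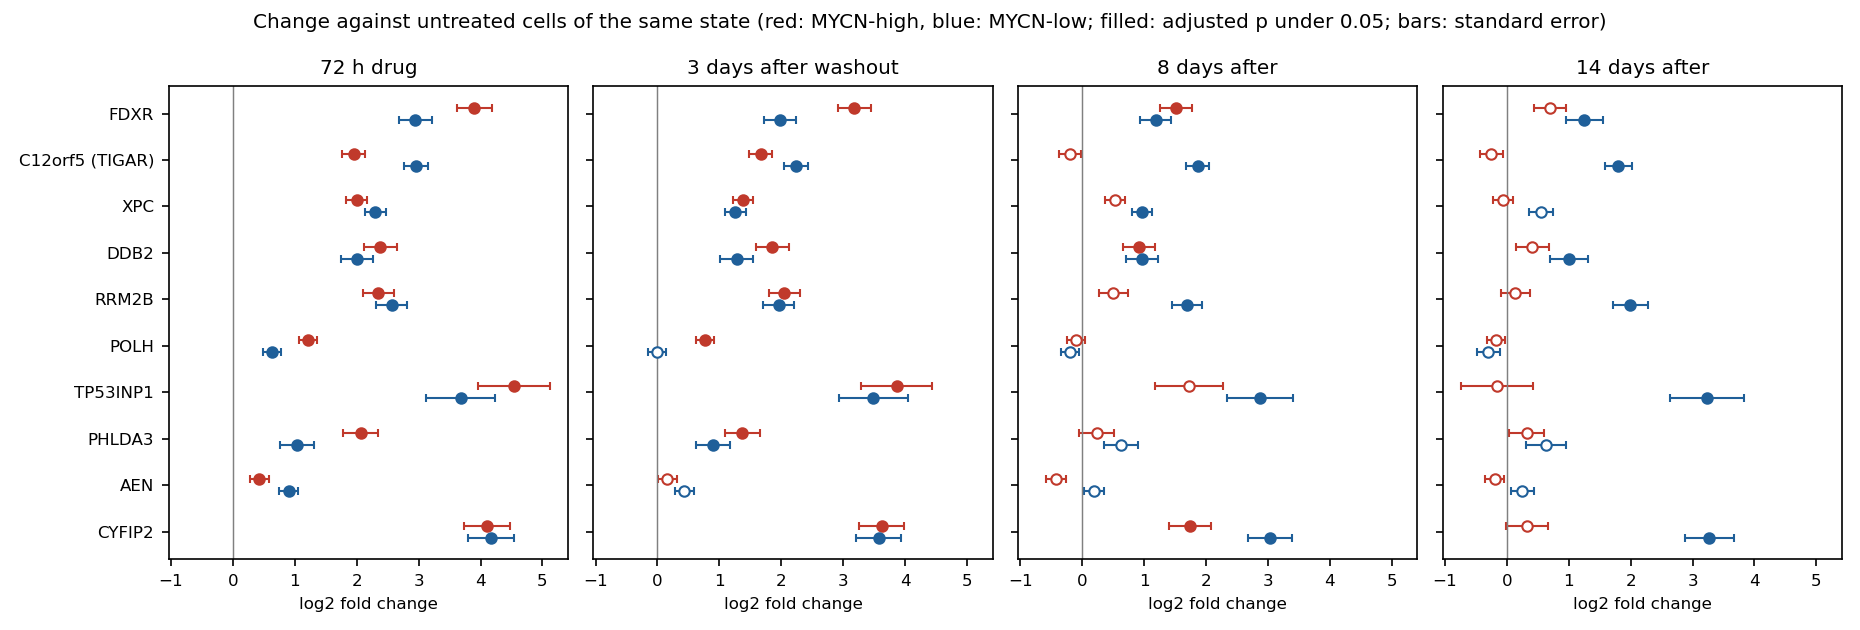
Log2 fold change of each of the 10 genes from untreated cells of the same state, with its standard error, at 72 h in doxorubicin and 3, 8 and 14 days after washout, for MYCN-high and MYCN-low cells. In MYCN-high cells the values approach 0 by 14 days, while in MYCN-low cells 6 of 10 genes are still called higher.

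After the drug was removed, fewer of the 10 genes were called higher at each later time in both states. In MYCN-high cells the number called higher than untreated went from 10 at 72 h to 9 at 3 days, 3 at 8 days and 0 at 14 days, where 15.1%, 4.49% and 0% of all tested genes were called higher. In MYCN-low cells the numbers were 10, 8, 7 and 6, where 10.5%, 10.2% and 7.63% of all genes were called higher at the 3 later times. The 14-day value of the MYCN-low state rests on 1 library, which the fit takes to vary like the other groups. For the count of 0 in MYCN-high cells at 14 days, edgeR gave 1 gene with an unadjusted p under 0.05 and the Wald test of DESeq2 also called 0; no gene of the whole table was called in that comparison. The median over the 10 fell in MYCN-high cells from 2.21 at 72 h to 1.76, 0.52 and 0.04, and in MYCN-low cells from 2.43 to 1.62, 1.08 and 1.13, while the median over all genes stayed between -0.05 and 0.03.

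At 3 days the levels of most members were still several times those of untreated cells in both states. FDXR stood at 158 and 136 CPM in MYCN-high cells (log2 3.18 ± 0.27 from untreated) and at 80.2 and 96.1 CPM in MYCN-low cells (log2 1.98 ± 0.26). CYFIP2 was at 179 and 145 CPM and 133 and 105 CPM (log2 3.62 ± 0.36 and 3.58 ± 0.36). TP53INP1 was at 84.9 and 35.3 CPM and 98.7 and 58.3 CPM, with B above C in both states. All of these libraries lay above the untreated ones of their state. RRM2B, at 338 and 321 CPM and 337 and 284 CPM, and C12orf5, at 101 and 80.3 CPM and 106 and 98.1 CPM, overlapped between the states at this time. XPC was at 162 and 156 and 134 and 160.3 CPM, and DDB2 at 31.8 and 36.5 and 31.0 and 38.0 CPM. PHLDA3 was at 30.8 and 21.5 CPM in MYCN-high and 65.2 and 54.8 CPM in MYCN-low cells, and its rise in MYCN-low cells (0.90 ± 0.27; edgeR, adjusted p = 0.027) was lost without untreated C or either 3-day library (adjusted p up to 0.16). AEN did not pass in either state at 3 days (0.16 ± 0.16 and 0.44 ± 0.16), and its libraries stood at 76.0 and 71.8 CPM in MYCN-high and 65.5 and 58.6 CPM in MYCN-low cells.

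At 8 days in MYCN-high cells the genes still called higher were FDXR, CYFIP2 and DDB2. FDXR stood at 58.9 and 34.0 CPM in B and C, both above the untreated libraries (log2 1.52 ± 0.26; edgeR, adjusted p = 0.0023). CYFIP2 was at 60.2 and 27.9 CPM (log2 1.74 ± 0.34), and the call was lost without untreated C or 8 days B (adjusted p = 0.073 and 0.10). DDB2 (log2 0.92 ± 0.26; adjusted p = 0.043) was lost in 13 of 19 fits that leave out 1 library, the exceptions being untreated and 14-day MYCN-low libraries, both 72 h MYCN-high libraries and 8 days C of MYCN-high cells. TP53INP1, with 20.5 and 6.70 CPM in B and C, had a difference close to that of CYFIP2 but a wider error (1.72 ± 0.55, adjusted p = 0.063). C12orf5, PHLDA3 and POLH overlapped their untreated libraries at this time.

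In MYCN-low cells at 8 days 7 genes were called higher, among them C12orf5 (1.87 ± 0.19), FDXR (1.19 ± 0.25) and XPC (0.97 ± 0.16), and the 4 given next. TP53INP1 stood at 65.0 and 37.6 CPM there (log2 2.87 ± 0.54 from untreated), CYFIP2 at 73.8 and 89.2 CPM (3.03 ± 0.36) and RRM2B at 251 and 265 CPM (1.69 ± 0.25). All of these libraries were well above the untreated ones. DDB2 was at 26.7 and 29.1 CPM (0.97 ± 0.26), a call lost without 8 days C (adjusted p = 0.065 by edgeR). PHLDA3, which started high in this state, stood at 57.9 and 41.9 CPM and did not pass (0.63 ± 0.27).

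At 14 days in MYCN-low cells the genes still called higher were C12orf5 (1.80 ± 0.21), CYFIP2 (3.27 ± 0.39), TP53INP1 (3.24 ± 0.60), RRM2B (1.99 ± 0.28), FDXR (1.25 ± 0.30) and DDB2 (1.00 ± 0.31), on the log2 scale. The DDB2 call was lost without either untreated MYCN-low library (adjusted p up to 0.070). Expressed as a share of the log2 rise at 72 h, TP53INP1 kept 87.9%, CYFIP2 78.3%, RRM2B 77.7% and C12orf5 60.9% in MYCN-low cells. In MYCN-high cells the same genes kept -3.56%, 7.89%, 6.00% and -12.6%, where a negative share is a level under the untreated mean. FDXR and DDB2 kept 42.4% and 50.1% in MYCN-low and 17.8% and 17.2% in MYCN-high cells. FDXR was at 25.5 and 27.1 CPM at 14 days in MYCN-high cells, above its untreated libraries without passing the test, and at 53.2 CPM in the MYCN-low library. POLH overlapped its untreated libraries in MYCN-low cells as early as 3 days, with 108 and 92.2 CPM at 3 days against 106 and 94.9 CPM untreated.

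Between neighbouring times, 10 of 10 genes were called lower in MYCN-high cells from 3 to 8 days, beside 6.42% of all genes. The largest falls in that step were TP53INP1 (-2.14 ± 0.52), CYFIP2 (-1.88 ± 0.33) and C12orf5 (-1.87 ± 0.19). Without 3 days B the count was 6, and without 8 days C, the lower duplicate, it was 4. From 72 h to 3 days in MYCN-high cells edgeR called 0 of 10, with 4 at an unadjusted p under 0.05 and 1 by the Wald test of DESeq2, beside 1.8% of all genes. From 8 to 14 days CYFIP2 alone was called lower, at -1.42 ± 0.34, beside 1.35% of all genes, and this was lost without any one of 7 libraries (8 days B, either library of 14 days or 3 days, and either 72 h MYCN-low library; adjusted p up to 0.45). In MYCN-low cells XPC alone was called from 72 h to 3 days (-1.04 ± 0.16, adjusted p = 0.030 by edgeR), beside 0.0473% of all genes, and lost in 11 of 19 fits without 1 library, those without untreated C and each of 3 days B and C and 14 days B and C of MYCN-high cells, and each of 72 h, 3 days and 8 days B and C of MYCN-low cells. From 3 to 8 days edgeR called 0 of 10 in MYCN-low cells (1 at an unadjusted p under 0.05, 0 by DESeq2; 0.703% of all genes), and from 8 to 14 days 0 of 10 (0 and 0; 0.0135%).

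Untreated cells of the 2 states differed in 3 of the 10 genes, beside 35.1% of all genes, a share near that of the members. PHLDA3 was lower in MYCN-high cells (-1.67 ± 0.28; edgeR, adjusted p = 0.00045). POLH was lower too (-0.55 ± 0.15, edgeR, adjusted p = 0.0087), but the call was lost without MYCN-high untreated C. With ERCC scaling its difference was 0.20, where the median of all genes was 0.62. AEN was higher (0.53 ± 0.16; adjusted p = 0.017), which was lost without MYCN-high untreated B (adjusted p = 0.22). XPC, RRM2B and CYFIP2 overlapped between the states. At 72 h the one member called was C12orf5, beside 29.9% of all genes, at -0.62 ± 0.18 in MYCN-high against MYCN-low cells. With ERCC scaling its difference was 2.11, where the median of all genes was 2.51. The call was lost without MYCN-high C or MYCN-low B of that time.

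At 3 days FDXR was higher in MYCN-high cells (0.74 ± 0.25) and PHLDA3 lower (-1.20 ± 0.27), which is 2 of 10 beside 31.8% of all genes. With ERCC scaling PHLDA3 was at 0.69, where the median of all genes was 1.82. The FDXR call was lost without any one of the 4 libraries compared (adjusted p up to 0.20) and the PHLDA3 call without MYCN-high C (adjusted p = 0.060). At 8 days 7 of 10 were lower in MYCN-high cells, beside 20.5% of all genes, and at 14 days 8 of 10, beside 20.5%. The 8-day count was 3 without MYCN-high C and 4 without MYCN-low C of that time. C12orf5 at 8 days stood at 26.6 and 23.1 CPM in MYCN-high against 80.8 and 77.3 CPM in MYCN-low cells, well apart (-1.67 ± 0.19; edgeR, adjusted p = 6.6e-06). PHLDA3 and RRM2B were also lower at 8 days, at -2.06 ± 0.28 and -1.19 ± 0.24 on the log2 scale. TP53INP1 (-1.91 ± 0.51) was lost without MYCN-low B or MYCN-high C of that time. The smaller differences of CYFIP2 (-0.89 ± 0.33), POLH (-0.46 ± 0.15) and XPC (-0.44 ± 0.16) were lost without MYCN-high C or MYCN-low C of that time, and for XPC also without 3 days C of MYCN-high cells. With ERCC scaling these 3 differences were 0.12, 0.35 and 0.42, where the median of all genes was 0.79.

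At 14 days the separation of the states was widest for TP53INP1, at 3.39 and 3.98 CPM in the MYCN-high libraries and 66.0 CPM in the MYCN-low library (-4.16 ± 0.63; edgeR, adjusted p = 0.00012). CYFIP2 was at 20.5 and 12.4 CPM and 96.5 CPM (-2.55 ± 0.39), and PHLDA3 at 13.5 and 11.8 CPM and 50.0 CPM (-1.98 ± 0.32). In each case both MYCN-high libraries were far under the single MYCN-low one. RRM2B (-1.86 ± 0.28), C12orf5 (-1.66 ± 0.21), DDB2 (-1.18 ± 0.31), FDXR (-1.01 ± 0.30) and XPC (-0.63 ± 0.20) were lower too, the last lost without MYCN-high C (adjusted p = 0.054). POLH (-0.43 ± 0.18, adjusted p = 0.061) and AEN (0.08 ± 0.19) did not pass. The median over the 10 was -1.42, beside 0.00 over all genes. The RNA-quality list did not move one way with this difference: 3 of its 5 genes were lower in MYCN-high cells at 14 days, while its sum was 5077 to 6464 CPM there against 3530 CPM, and its part was not tested.

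**Figure D3:**
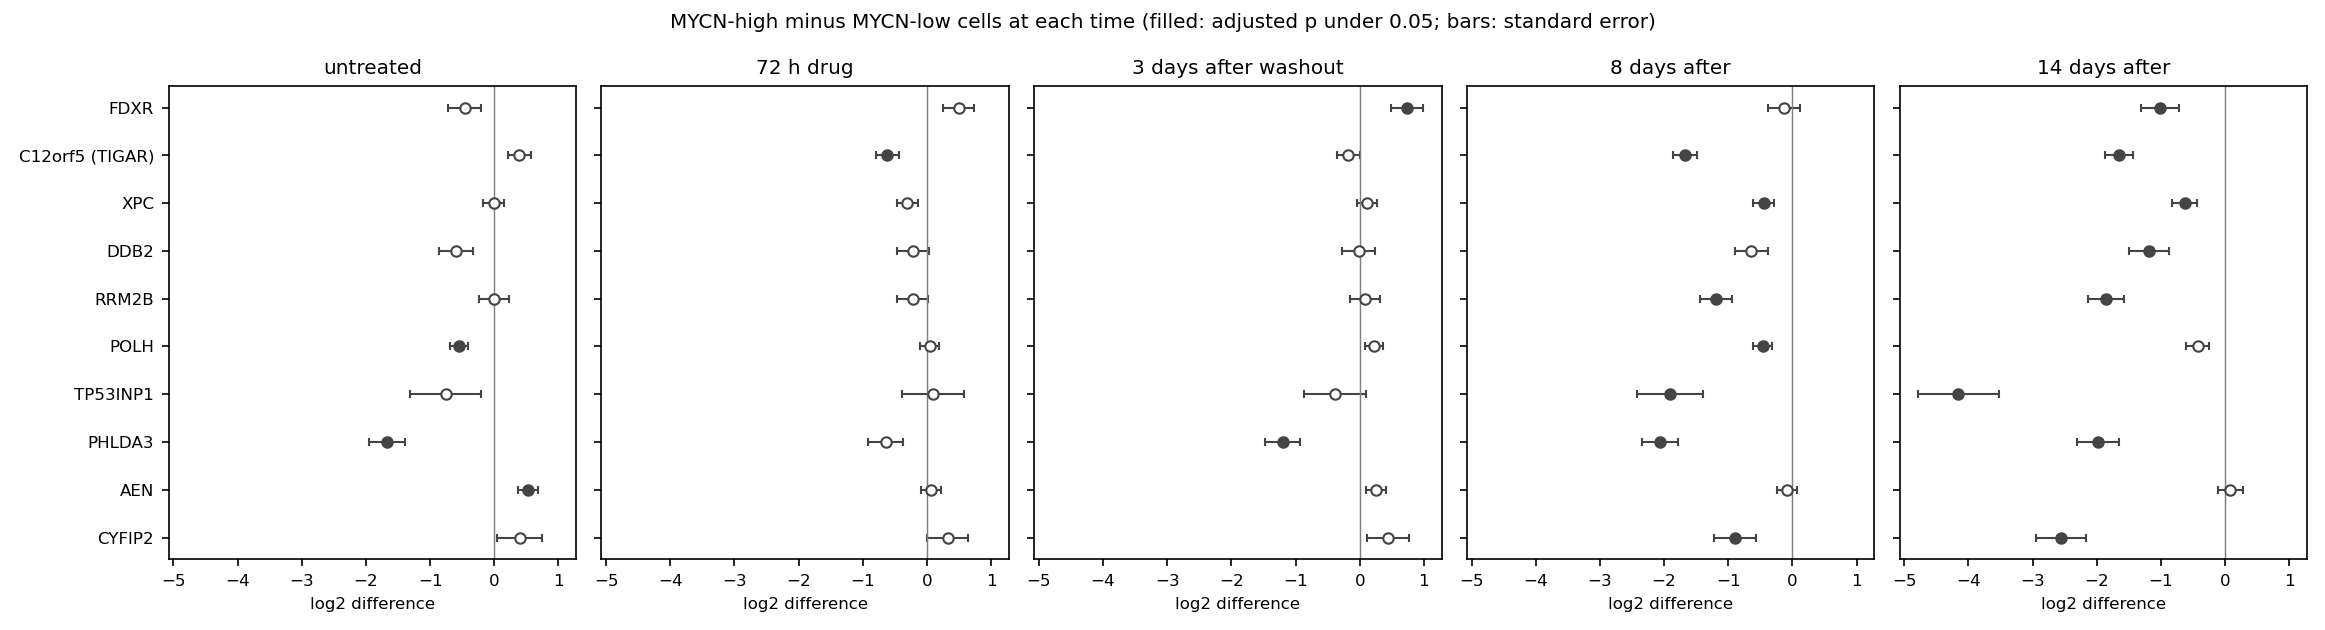
Log2 difference of MYCN-high from MYCN-low cells for each of the 10 genes, with its standard error, at each sampling time. Up to 3 days the values lie on both sides of 0, and at 8 and 14 days most lie under it.

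Whether the 2 states responded to the drug to a different extent was tested directly, as the MYCN-high change from untreated minus the MYCN-low change. At 14 days 4 of the 10 genes had a smaller response in MYCN-high cells, beside 2.53% of all genes: C12orf5 (-2.05 ± 0.28; edgeR, adjusted p = 0.0012), CYFIP2 (-2.95 ± 0.52; 0.0055), RRM2B (-1.85 ± 0.37; 0.010) and TP53INP1 (-3.40 ± 0.84; 0.025). The TP53INP1 call was lost without any one of untreated MYCN-high B or C, untreated MYCN-low B, or 14 days B or C of MYCN-high cells (adjusted p up to 0.071). At 8 days C12orf5 alone was called (-2.06 ± 0.26; adjusted p = 0.00053), beside 1.94% of all genes, and RRM2B lay just outside the threshold (-1.19 ± 0.34; adjusted p = 0.0503). C12orf5 at 8 and 14 days, and CYFIP2 and RRM2B at 14 days, were called in every fit that left out 1 library and could be made.

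At 72 h the response of C12orf5 was smaller in MYCN-high cells (-1.01 ± 0.26, edgeR, adjusted p = 0.023), beside 4.06% of all genes. With ERCC scaling its difference was 0.99, where the median of all genes was 1.87. The call was lost without any one of untreated MYCN-high B or C, untreated MYCN-low B, 72 h C of MYCN-high or 72 h B or C of MYCN-low cells. At 3 days POLH had the larger response in MYCN-high cells (0.78 ± 0.20; adjusted p = 0.033), beside 5.1% of all genes, lost without any one of the 8 libraries compared other than untreated MYCN-low C (adjusted p up to 0.14) and also without the filter on low counts. The responses of FDXR (0.95 ± 0.35 at 72 h, adjusted p = 0.094) and PHLDA3 (1.03 ± 0.39, adjusted p = 0.097) did not pass at 72 h, though both were called without untreated MYCN-low C (adjusted p = 0.048 and 0.010). XPC, DDB2, AEN, FDXR and PHLDA3 passed at none of the 4 times.

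**Figure D4:**
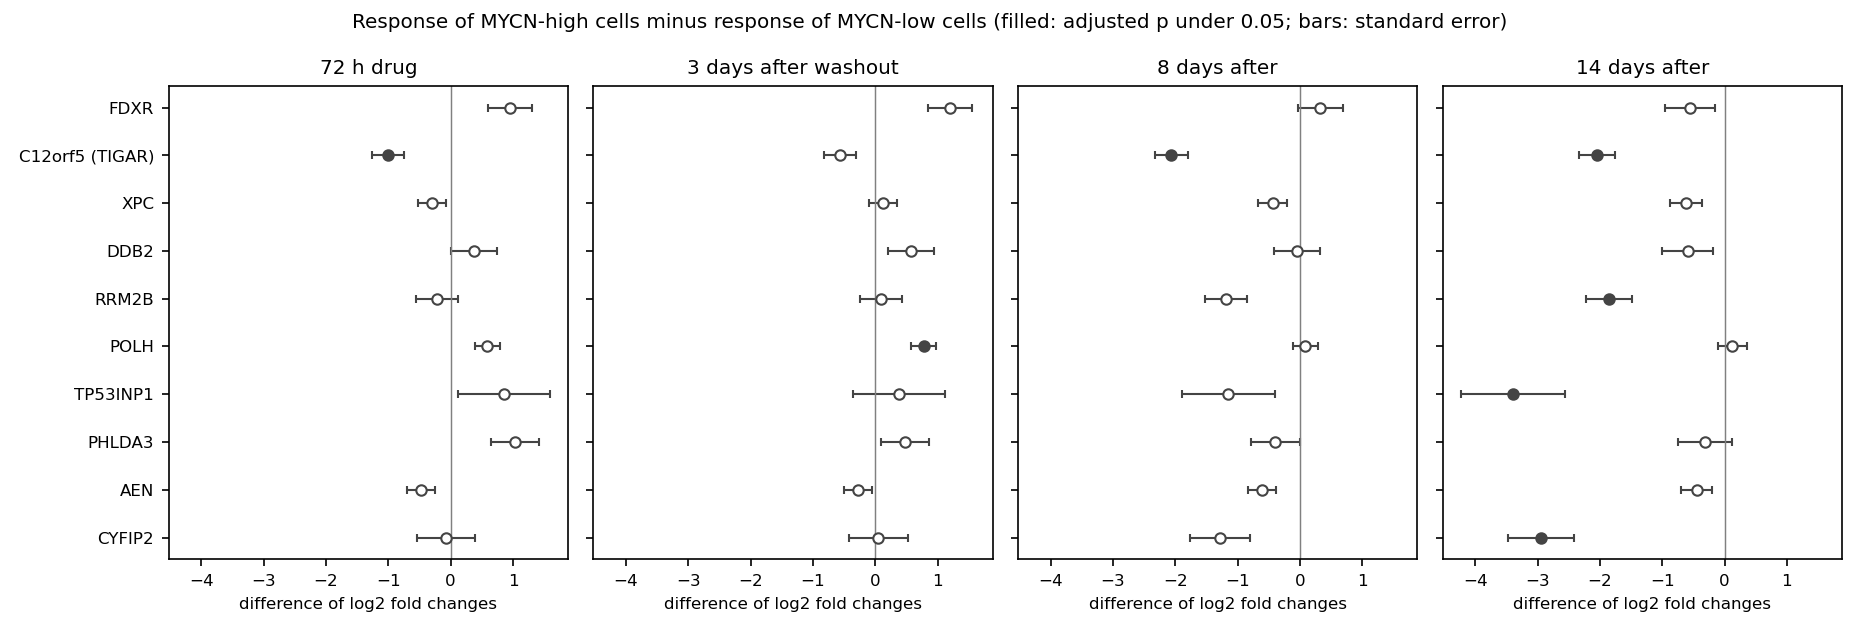
MYCN-high minus MYCN-low response to doxorubicin, in log2, with its standard error, for each of the 10 genes at each treated time. C12orf5, CYFIP2, RRM2B and TP53INP1 lie furthest under 0 at 14 days.

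Other p53 targets, a list of 50 chosen with earlier results of these data known and 48 of them tested, were set beside the 10. At 72 h 39 of 48 were higher and 1 lower in MYCN-high cells (median 1.61), beside 18.3% and 17.9% of all genes. In MYCN-low cells 40 were higher, beside 10.2% of all genes. CDKN1A, the cyclin-dependent kinase inhibitor, was the most raised of the named ones, at 5.59 ± 0.40 and 4.15 ± 0.37 in the respective state. MDM2 rose by 2.35 ± 0.30 and 2.71 ± 0.30, and EDA2R, a TNF receptor family member, by 3.20 ± 0.27 and 2.88 ± 0.27. At 14 days 25 of 48 were still higher in MYCN-low cells, beside 7.63% of all genes, and 1 was lower. MDM2 stood 1.98 ± 0.33 above untreated in MYCN-low cells at that time, and 0.09 ± 0.28 in MYCN-high cells did not pass, with a difference of responses of -1.89 ± 0.44 (edgeR, adjusted p = 0.019), lost without untreated B or 14 days C of MYCN-high cells. For CDKN1A the difference of responses was -2.10 ± 0.52 (adjusted p = 0.025), lost without either untreated or 14 days C of MYCN-high cells. Of the 48, 10 had a smaller response in MYCN-high cells at 14 days, beside 2.53% of all genes, and 27 were lower there in level, beside 20.5%. The first of these counts was 4 and 6 without untreated MYCN-high B and C, 5 without 14 days C of MYCN-high cells, 21 without untreated MYCN-low C, 18 with the Wald test of DESeq2 and 22 without the filter.

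The counts that follow for other gene lists at 72 h stand beside 18.3% of all tested genes called higher and 17.9% called lower in MYCN-high cells, and 10.2% and 12.1% in MYCN-low cells. Of 21 tested genes of nucleotide excision repair other than XPC and DDB2, 3 rose and 2 fell at 72 h in MYCN-high cells (median -0.09), and 2 rose and 2 fell in MYCN-low cells (median 0.11). These shares of higher calls are near those over all genes. DDB1, which pairs with DDB2, rose by 0.67 ± 0.14 in MYCN-high cells, and its 0.26 ± 0.14 in MYCN-low cells did not pass. RAD23B, which stabilises XPC, fell in MYCN-high cells (-0.46 ± 0.14), a call lost without untreated B or C or 72 h C of that state. With ERCC scaling RAD23B was at 1.92 there, where the median of all genes was 2.37. It did not pass in MYCN-low cells (-0.17 ± 0.14). ERCC6, the CSB protein of transcription-coupled repair, rose in both states (0.78 ± 0.22 and 0.99 ± 0.22), the first lost without untreated C or 72 h B of MYCN-high cells. In MYCN-low cells the counts of excision repair genes moved with single libraries, from 1 that rose and 0 that fell without untreated B to 4 and 4 without untreated C, with 1 and 1 without 72 h B and 2 and 0 without 72 h C; in MYCN-high cells they were 3 and 0 without untreated B and 1 and 1 without untreated C.

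Among 12 translesion synthesis genes other than POLH, 6 fell in MYCN-high cells (median -0.55), and 4 fell and 3 rose in MYCN-low cells (median 0.13). Over all tested genes 17.9% were called lower in MYCN-high cells and 12.1% in MYCN-low cells. RAD18, the ligase that marks PCNA at stalled forks, fell in both (-2.52 ± 0.27 and -1.62 ± 0.26), while REV3L, the catalytic subunit of polymerase zeta, rose in MYCN-low cells (1.13 ± 0.18). PCNA, the sliding clamp on which POLH works, fell in MYCN-high cells (-0.95 ± 0.19) with TMM scaling. It stood at 1.37 with ERCC scaling, where the median of all genes was 2.37. In MYCN-low cells the PCNA value of 0.41 ± 0.19 did not pass. Its difference of responses was -1.36 ± 0.27 (edgeR, adjusted p = 0.0086). With ERCC scaling that difference was 0.55, where the median of all genes was 1.87.

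RRM2B rose, and RRM2, the small subunit used in S phase, fell. RRM2 was at 473 and 525 CPM untreated and 10.6 and 49.5 CPM at 72 h in MYCN-high cells, and at 265 and 462 and 0.195 and 0.435 CPM in MYCN-low cells, the last from 4 and 9 counts. The libraries of both states fell far below the untreated ones, and those of MYCN-low cells came near 0. The changes were -4.06 ± 0.54 in MYCN-high and -10.15 ± 0.79 in MYCN-low cells, and their difference was 6.09 ± 0.92 (edgeR, adjusted p = 0.0022). RRM1, the large subunit that serves both, changed by -2.80 ± 0.28 in MYCN-high and -1.53 ± 0.26 in MYCN-low cells. At 14 days RRM2 was at 429.5 and 327 CPM in MYCN-high cells and at 48.9 CPM in the MYCN-low library, while RRM2B stood high in the latter. Of 9 genes of ribonucleotide reductase and nucleotide salvage other than RRM2B, 6 fell and 1 rose in each state at 72 h, with medians of -1.83 in MYCN-high and -1.24 in MYCN-low cells.

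The electron acceptors of FDXR did not pass at 72 h: the log2 difference of FDX1 was -0.50 ± 0.27 and 0.20 ± 0.28, and that of FDX1L -0.39 ± 0.24 and -0.02 ± 0.24, in MYCN-high and MYCN-low cells. ISCU, the scaffold on which iron-sulfur clusters are built, rose in both states (1.21 ± 0.22 and 1.52 ± 0.22), and was one of the 2 genes, of 13 listed, that rose in each, while 1 fell in MYCN-high cells (medians 0.02 and -0.05). PFKFB3, whose kinase makes the fructose-2,6-bisphosphate that TIGAR removes, did not pass in either state (0.70 ± 0.37 and -0.25 ± 0.37). Its relative PFKFB4 rose in MYCN-high cells (1.59 ± 0.32), and PFKP, the platelet phosphofructokinase, fell in MYCN-low cells (-1.01 ± 0.18). Of 13 tested genes of fructose bisphosphate and pentose phosphate metabolism, 4 rose and 1 fell in MYCN-high cells and 1 rose and 1 fell in MYCN-low cells (medians 0.45 and 0.07). Over all tested genes 18.3% rose and 17.9% fell in MYCN-high cells and 10.2% and 12.1% in MYCN-low cells, so the MYCN-low counts are near the background. The counts of this metabolic list became 3 and 0 without untreated B of MYCN-high cells, and 3 and 4 without untreated C of MYCN-low cells, and the count of iron-sulfur genes that rose was 1 in either state without its untreated B or 72 h B.

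Values here are at 72 h unless another time is given. Among paralogs of the signalling genes, PHLDA1 rose in MYCN-high cells (3.07 ± 0.43) and did not pass in MYCN-low cells (0.88 ± 0.40). The difference was 2.19 ± 0.57 (edgeR, adjusted p = 0.026). It was lost without any one of untreated MYCN-low B, untreated or 72 h C of MYCN-high cells, or 72 h B or C of MYCN-low cells. At 8 days PHLDA1 stood above untreated by 1.77 ± 0.41 in MYCN-high and 1.81 ± 0.41 in MYCN-low cells. At 14 days the values were -0.58 ± 0.41 and 2.53 ± 0.47, a difference of -3.11 ± 0.63. The MYCN-low side of that last difference is 1 library. CYFIP1, the other CYFIP subunit of the WAVE complex, rose by 0.69 ± 0.14 in MYCN-high cells, while -0.10 ± 0.14 in MYCN-low cells did not pass. The difference of responses was 0.79 ± 0.20 (edgeR, adjusted p = 0.024). It was lost without any one of the same 5 libraries as the 72 h difference of PHLDA1. Among 6 genes of the TP53INP1 paralog and its autophagy partners 5 rose in MYCN-high and 3 in MYCN-low cells (medians 1.10 and 0.73). GABARAPL1, an LC3-family protein, rose by 1.49 ± 0.32 and 1.39 ± 0.31. The MYCN-high count of these partners was 3 without untreated B or 72 h B.

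**Figure D5:**
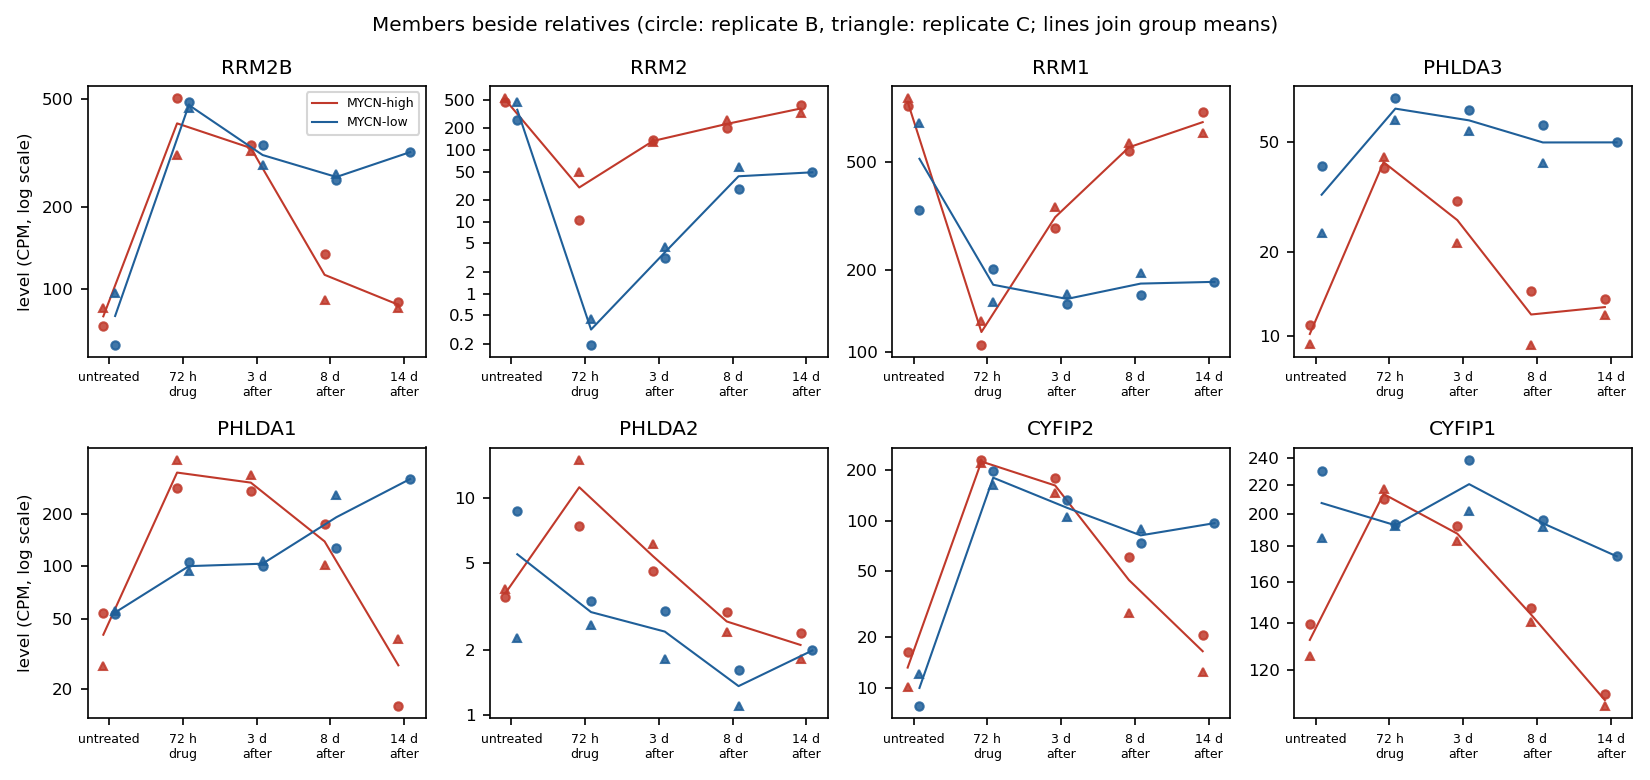
Level of RRM2B, PHLDA3 and CYFIP2 and of their relatives RRM2, RRM1, PHLDA1, PHLDA2 and CYFIP1 in every library, in TMM-scaled CPM on a log axis, against the sampling time (categories, not to scale); circles are replicate B, triangles replicate C, and lines join the group means of MYCN-high (red) and MYCN-low (blue) cells. RRM2B stands above its untreated libraries at 72 h in both states, while RRM2 is at 0.195 and 0.435 CPM in the MYCN-low libraries at that time.

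Over the 10 group means of log2 CPM, the 45 pairs of members had Pearson correlations from 0.28 (PHLDA3 with AEN) to 0.98 (C12orf5 with RRM2B), with a median of 0.86. The group means share their untreated groups and time course, so these values only describe the pattern. The 2 genes most like each member by this measure were sought among 10426 others with a mean of at least 5 CPM. RRM2B was most like MDM2 (0.99), C12orf5 most like RPS27L (0.99), and DDB2 most like ACER2 (0.99). TP53INP1 was closest to ATP6V1A and SPATA18 (both 0.99), and CYFIP2 to JHDM1D and BTG2 (both 0.99). FDXR was closest to TMEM68 and ABCA12 (both 0.97), XPC to ASTN2 (0.97) and LONP2 (0.95), POLH to EXOC3 and C16orf5 (both 0.98), and PHLDA3 to MAN1B1 and TBC1D9 (both 0.99). AEN had the loosest matches, SLU7 (0.94) and NOP14-AS1 (0.93).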

How the data were processed

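The deposited table holds raw read counts per gene symbol, whole numbers with a different sum in each of the 19 libraries, and no column was left unused. Per the labels' protocols, ERCC RNAs were added, ribosomal RNA was removed with RiboGold and ScriptSeq libraries were built, although the molecule field reads polyA RNA. The submitters' processing notes name STAR 2.4.0h1, HTSeq and build hg19; annotation and strand setting are not given in the sources used here, so overlapping and antisense genes cannot be told apart.

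Counts of 92 ERCC RNAs were set aside. In R 4.3.3 with edgeR 4.0.16, genes were kept by filterByExpr, TMM scaling was applied, and 1 quasi-likelihood model over all groups (a coefficient for each; 9 residual degrees of freedom, biological coefficient of variation 0.204) gave tests in 23 contrasts, each adjusted by Benjamini-Hochberg over 14793 genes. CPM are gene counts over TMM-scaled library sizes. The procedure was tested on simulated data. Alternatives were the size factors and the Wald test of DESeq2 1.42.0, ERCC scaling, no filter, the replicate letter as a block, and leaving out each library. Correlations used log2 CPM (prior count 2). Plots were made in Python 3.11.15 and matplotlib 3.10.9.

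The 10 genes and all lists were chosen with earlier results of these data known. Named genes were all 10 members, their fixed direct partners, up to 4 genes per list by smallest p, and the 2 most alike genes; some of these were left out for length.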

Additional observations from a re-analysis of the deposited data

Results flagged for a closer look

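For 7 results on the 10 genes the response to doxorubicin differed between the states, as the MYCN-high change minus the MYCN-low change in log2. C12orf5 differed at 72 h (-1.01 ± 0.26; edgeR, adjusted p = 0.023), at 8 days (-2.06 ± 0.26; 0.00053) and at 14 days (-2.05 ± 0.28; 0.0012). POLH differed at 3 days (0.78 ± 0.20; 0.033), in the opposite direction. CYFIP2 (-2.95 ± 0.52; 0.0055), RRM2B (-1.85 ± 0.37; 0.010) and TP53INP1 (-3.40 ± 0.84; 0.025) differed at 14 days, where the MYCN-low side is 1 library. Groups of 2 are too small to look for single outlying libraries.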

How the results depend on the processing

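Groups hold 2 libraries, 1 at 14 days in MYCN-low cells, which limits the precision, and leaving that library out gives no value for its comparisons. Counts below are of genes called in either direction. ERCC RNAs were 0.0116% to 0.537% of counts. Their share was far apart between some duplicates, such as 0.0116% and 0.191% in MYCN-high B and C at 72 h. It was close between others, such as 0.0890% and 0.0961% in MYCN-low B and C at 8 days. Scaling on ERCC RNAs moved the median of all genes by -2.19 to 2.50 (log2). It left 0 of 10 genes called in 22 of 23 comparisons and 1 at 72 h in MYCN-high cells. The cause was not tested. Among called values of the members, ERCC scaling turned the sign of POLH in untreated states (0.20), C12orf5 between states at 72 h (2.11), PHLDA3 at 3 days (0.69), XPC (0.42), POLH (0.35) and CYFIP2 (0.12) at 8 days, and the C12orf5 response difference at 72 h (0.99). Of other named genes it turned RAD23B (1.92) and PCNA (1.37) at 72 h in MYCN-high cells, and the 72 h response difference of PCNA (0.55). Each of these lay under the median of all genes with that scaling. Between states that median was 0.62 untreated, and 2.51, 1.82 and 0.79 at 72 h, 3 and 8 days. It was 2.37 at 72 h in MYCN-high cells and 1.87 for the 72 h response difference. A further 50 member values changed sign without passing in either fit.

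Of 230 values (10 genes in 23 comparisons), the same side of the threshold held for 224 with the size factors of DESeq2, 212 with its Wald test, 206 without the filter and 224 with the replicate block, and no sign of a called value turned. Without the filter the counts became 3 for the states at 72 h, 3 and 4 for the response differences at 72 h and 8 days, 4 and 3 for the steps from 72 h to 3 days and from 8 to 14 days in MYCN-high cells, and 3 and 1 for the first 2 steps in MYCN-low cells. With the Wald test they were 6 for 8 days in MYCN-high cells (5 higher and AEN lower), 2, 2 and 4 for the response differences at 72 h, 3 and 8 days, 1 and 3 for the same MYCN-high steps, and 4 for the first MYCN-low step. With DESeq2 size factors the 8-day response difference had 2. Differences between B and C were at most weakly alike across groups (36 pairs of groups, r from -0.21 to 0.32, median 0.11, 22 over 0.1). Whether the letters pair libraries is not settled by these values, and the main fit did not use them as a block. With the replicate block the counts were 2 each for the states at 72 h, the response differences at 72 h and 8 days, and the step from 8 to 14 days in MYCN-high cells.

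Leaving out each library gave 0 to 2 genes called between states at 72 h, 0 to 2 at 3 days and 3 to 8 at 8 days; 1 to 5 for 8 days in MYCN-high cells (the 5, without untreated MYCN-low C, being 4 higher and AEN lower); 0 to 4, 0 to 2 and 1 to 4 for the response differences at 72 h, 3 and 8 days; 0 to 1, 4 to 10 and 0 to 2 for the 3 MYCN-high steps in order; and 0 to 1 for the first MYCN-low step. Counts in the other comparisons stayed within 1.5 times.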

Other observations

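Some further paralogs of the 10 genes moved at 72 h. ISG20, an exonuclease related to AEN, rose in MYCN-high cells by 4.09 ± 0.94 on the log2 scale (edgeR, adjusted p = 0.0031), and its 1.95 ± 0.75 in MYCN-low cells did not pass (adjusted p = 0.075). PHLDA2, a paralog of PHLDA3, rose in MYCN-high cells (1.61 ± 0.50) and did not pass in MYCN-low cells (-0.87 ± 0.51). The first was lost without untreated B or C or 72 h C of MYCN-high cells. The difference of its responses was 2.48 ± 0.71 (adjusted p = 0.038), lost without any one of those 3 libraries, 3 days C of MYCN-high cells, untreated B or 72 h B or C of MYCN-low cells. TP53INP2, a paralog of TP53INP1, rose by 0.91 ± 0.33 in MYCN-high cells (adjusted p = 0.044), a call lost without any one of 12 libraries (untreated, 72 h and 8 days B and C of MYCN-high cells, and 72 h, 3 days and 8 days B and C of MYCN-low cells), and its 0.60 ± 0.31 in MYCN-low cells did not pass. BTG2, an antiproliferative p53 target, rose by 4.35 ± 0.36 in MYCN-high cells.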
